A study of Mus musculus with 8 samples.

Results

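Hal, Ggct, Cysrt1, Dapl1 and Rnf227 are 5 genes that were picked because their transcripts were among the largest falls in skin lacking p63 and because little is widely known of most of them in epidermis. They are 5 of 13674 genes with a single annotated symbol on the arrays, and all 9 probe sets that carry 1 of these symbols are described. Since the choice used the null against wild-type difference itself, that difference is given for these genes as values per array, without a test. RNA of whole skin from mouse embryos at E18.5, shortly before birth, was hybridised to single-colour Affymetrix arrays of an A chip and a B chip, which carry different probe sets. Skin of 2 p63 null embryos was set against skin of 2 wild-type embryos on each chip, and all embryos came from crosses of p63 heterozygotes. The labels do not give the p63 allele, the strain or whether number 1 on the A chip is the same embryo as number 1 on the B chip. Nor do they say whether the embryos shared litters.

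p63, encoded by Trp63, is the transcription factor that stratified epithelia depend on for their formation and renewal. In late gestation the epidermis builds its barrier by turning keratinocytes into cornified cells, filled with filaggrin breakdown products and bounded by a crosslinked protein envelope. Hal (histidase) removes ammonia from histidine, much of it released from filaggrin, and leaves urocanic acid, an ultraviolet-absorbing component of the cornified layer. Ggct (gamma-glutamylcyclotransferase) splits gamma-glutamyl dipeptides into 5-oxoproline and a free amino acid within the gamma-glutamyl cycle of glutathione. Cysrt1 encodes a cysteine-rich tail protein, which in human epidermis has been found to interact with late cornified envelope proteins. Dapl1 (death associated protein-like 1), also called EEDA, is a small relative of Dap and a marker of early differentiation in stratified epithelia. Rnf227 has a RING finger gene name, but the RefSeq table of GRCm38.p6 enters the mouse locus as a long non-coding RNA with the synonym Chd3os, and no protein role is given to it here.

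Promoters of 4 members are shown because the transcripts they precede were all far lower in null skin. They are the 250 bases before the annotated start of Hal (chr10:93488518-93488767, plus strand), Ggct (chr6:54992868-54993117, minus strand), Cysrt1 (chr2:25239898-25240147, minus strand) and Dapl1 (chr2:59484403-59484652, plus strand), from RefSeq, build GRCm38.p6, read 5′ to 3′ along the gene. Capitals mark matches, on either strand, to the 5 motifs named below the sequences.
Hal: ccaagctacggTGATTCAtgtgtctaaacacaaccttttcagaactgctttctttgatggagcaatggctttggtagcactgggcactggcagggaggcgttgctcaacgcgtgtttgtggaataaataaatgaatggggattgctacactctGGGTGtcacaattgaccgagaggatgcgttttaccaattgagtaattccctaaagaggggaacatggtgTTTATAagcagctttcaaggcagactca
Ggct: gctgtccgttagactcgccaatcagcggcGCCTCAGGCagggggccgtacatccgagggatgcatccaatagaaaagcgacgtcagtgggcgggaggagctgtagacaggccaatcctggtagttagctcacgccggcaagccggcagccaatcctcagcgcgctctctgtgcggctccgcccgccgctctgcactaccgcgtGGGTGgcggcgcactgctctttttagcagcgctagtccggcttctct
Cysrt1: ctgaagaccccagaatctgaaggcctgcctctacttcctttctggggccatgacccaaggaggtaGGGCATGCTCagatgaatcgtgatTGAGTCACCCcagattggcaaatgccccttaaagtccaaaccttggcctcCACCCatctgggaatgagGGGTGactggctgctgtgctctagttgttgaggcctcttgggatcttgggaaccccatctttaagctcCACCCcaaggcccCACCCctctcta
Dapl1: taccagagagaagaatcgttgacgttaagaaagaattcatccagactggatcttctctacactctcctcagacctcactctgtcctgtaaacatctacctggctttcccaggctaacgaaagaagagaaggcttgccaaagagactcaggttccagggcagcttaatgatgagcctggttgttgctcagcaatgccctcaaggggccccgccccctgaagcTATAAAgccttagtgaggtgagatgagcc

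The TATA box letters TATAAA were present in 12.4% of the 32851 windows of this length in the table. Dapl1 held them at position -29 and Hal held them on the other strand at position -28, counted from the start, while the Ggct and Cysrt1 windows had no such letters. The AP-1 letters TGANTCA, in 6.75% of windows, occurred once in Hal (position -239) and once in Cysrt1 (position -161). The KLF-type letters CACCC, in 52.0% of windows, occurred 5 times in Cysrt1, once each in Hal and Ggct, and 0 times in Dapl1. In Cysrt1 the match to CACCC at position -156 overlaps the AP-1 match. The AP-2 letters GCCNNNGGC, in 13.7% of windows, occurred once, in Ggct. The decamer of the p53-family half-site, in 7.13% of windows, occurred once, in Cysrt1 at position -185. The 4 windows therefore had no motif of these 5 in common, and their base composition ranged from 45.6% G and C in Hal to 64% in Ggct, with a median of 52.4% over all windows. A match describes letters only and is no evidence of binding.

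Transcript signal of Hal, the histidine-degrading enzyme, was 32.6 and 33.1 in the 2 null skins, against 1386.8 and 1599.5 in the 2 wild-type skins of the A chip. These signals are linear MAS5 intensities that the authors had scaled to one trimmed mean per chip. The null mean was 2.20% of the wild-type mean, and the 2 null readings were nearly equal. On the log2(signal + 12.9) scale, where 12.9 is the 20th percentile of the A chip, the null minus wild-type difference was -5.04. Hal stood at place 5 among the falls of the 7453 probe sets tested on that chip.

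Ggct, the enzyme of the gamma-glutamyl cycle, read 63.7 and 76.1 in null skin and 2712.6 and 2775.8 in wild-type skin. Its null mean was 69.9 ± 8.77 and its wild-type mean 2744 ± 44.7 (SD, n = 2 each), a log2 difference of -5.06. It stood at place 4, between Crct1 (-5.20), a cysteine-rich protein gene of the epidermal differentiation complex, and Hal. The order of Ggct and Hal turned with the setting: with an offset of 1 the difference was -5.28 for Ggct and -5.46 for Hal, and it also turned with 0.5 times the offset, with quantile scaling and without null replicate 1 or wild-type replicate 1. The groups lay far apart, with the null mean at 2.55% of the wild-type mean.

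Cysrt1, the cysteine-rich tail protein gene, was represented on the B chip alone, with signals of 124.4 and 172.7 in null skin and 9262.2 and 10122.8 in wild-type skin. Both null readings were above 54.3, the 20th percentile of the B chip, which serves as the offset there. The means were 149 ± 34.2 in null and 9693 ± 609 in wild-type skin (SD, n = 2 each). The log2 difference was -5.60, at place 5 of the 7446 probe sets tested on the B chip, next to Dapl1 (-5.61) and Klk5 (-5.57), a protease of corneocyte shedding.

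Dapl1 had 2 probe sets, both on the B chip. The first, 109381_s_at, whose suffix marks probes shared by several transcripts, read 17.9 and 72.2 in null skin and 7859 and 7504.7 in wild-type skin. The second, 109382_r_at, whose suffix marks relaxed probe selection, read 42.6 and 10.3 in null skin and 4098.1 and 3553.4 in wild-type skin. Null embryo 1 was thus the lower of the 2 in the first probe set and the higher in the second, and 3 of these 4 null readings lay under the B-chip offset of 54.3. The log2 differences were -6.34 and -5.61, places 1 and 4 of the chip. Lce1l, a late cornified envelope gene, followed at -6.33. Null means of 0.586% and 0.691% of wild type are the smallest among the 7 member probe sets that were tested.

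Rnf227 was read by 4 probe sets that did not give the same picture. They are tied to it by the annotated symbol alone, and the strand of the sequences behind them, and so the transcript measured, was not checked. The A-chip set 160905_s_at read 50.6 and 29.3 in null skin and 1236.6 and 1309.3 in wild-type skin, a log2 difference of -4.63. The B-chip set 107511_at read 119.4 and 19.0 in null skin and 2668.9 and 2797.1 in wild-type skin, a log2 difference of -4.63. In both, every null reading was below every wild-type reading, and the null means were 3.14% and 2.53% of wild type. The other 2 carry the suffix _i_at, for sets with fewer unique probes than the design asked for, and both stayed below the level for testing.

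The A-chip set 161553_i_at read 15.5 and 10.4 in null skin and 3.4 and 1.7 in wild-type skin, so that its null readings were higher, at a level around or under the offset of 12.9. The B-chip set 165013_i_at read 58.8 and 41.7 in null skin and 64.9 and 48.2 in wild-type skin, and the groups overlapped. No detection calls were used here, so these low readings cannot be called absent or present. Rnf227 lies next to Chd3 on chromosome 11, and no probe set with the single symbol Chd3 was found, so its level could not be set beside Rnf227.

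**Figure D1:**
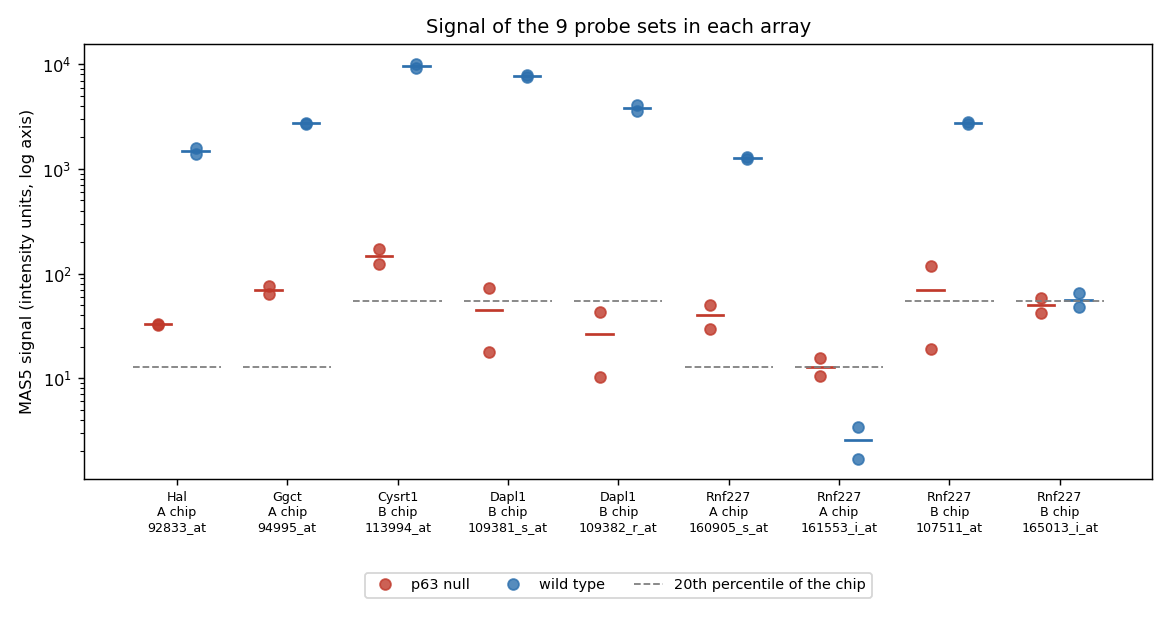
MAS5 signal (log axis) of each of the 9 probe sets in the null arrays (red, left) and the wild-type arrays (blue, right), with bars at the means of 2 arrays and a dashed line at the 20th percentile of the chip. The 7 tested probe sets have every null point below every wild-type point, while the 2 Rnf227 sets ending in _i_at read 64.9 or less in every array.

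Of the 9 probe sets 7 passed the filter on low mean signal, which covers all 5 genes. A probe set could pass through its wild-type arrays alone, and 11 of the 14 null readings of the tested sets lay below the signal that the filter corresponds to (54.0 for the A chip and 167 for the B chip). In all 7 both null arrays were below both wild-type arrays, as was so for 36.2% of tested A-chip and 31.7% of tested B-chip probe sets, and all 7 differed by at least 4 on the log2 scale, as did 0.282% and 0.389%. The genes were chosen by this contrast, so these counts only describe the choice. The members just inside the order of falls were Rnf227 at place 8 on the A chip, between Fgfbp1 (-4.76) and Il1f5 (-4.55), and Rnf227 at place 13 on the B chip, between Aox4 (-4.70) and Serpinb12 (-4.60).

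**Figure D2:**
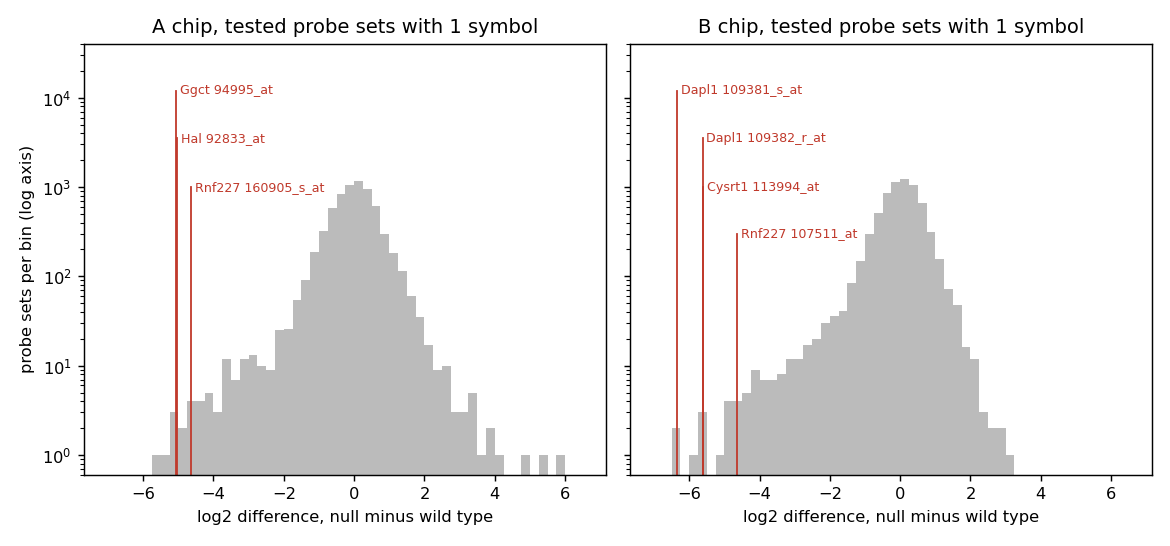
Histograms of log2 differences, null minus wild type (x axis), for tested single-symbol probe sets of the A chip (left) and the B chip (right), with counts on a log axis. Red lines mark the 7 tested member probe sets, from -6.34 to -4.63, all in the sparse left tail, and their heights only space the labels.

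Spread between the 2 embryos of a genotype differed among the members. In wild-type skin the SD of the log2 values was 0.02 for Ggct, 0.05 for both Dapl1 109381_s_at and Rnf227 107511_at, and 0.14 for Hal. In null skin it ran from 0.01 for Hal to 0.88 for Rnf227 107511_at. On this scale null readings varied more than wild-type readings for 6 of the 7 tested sets, Hal being the exception, and leaving out single arrays moved the Rnf227 107511_at difference between -5.25 and -4.0.

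The genes with values nearest to each member were found by centring the 4 log2 values of each probe set of a chip on their own mean. The root mean square distance over the 4 arrays was then taken. The nearest to Ggct were Crct1 (distance 0.08 log2 units), Hal (0.09) and Fgfbp1 (0.15), which encodes a carrier protein of fibroblast growth factors. The nearest to Hal were Ggct (0.09), Crct1 (0.10) and Fgfbp1 (0.16). The nearest to Rnf227 were Crct1 (0.17), the desmosomal membrane protein gene Perp (0.23) and the desmosomal cadherin Dsc1 (0.23) for its A-chip set. For its B-chip set they were Pof1b (0.23), Lce1k (0.27) and Lce1h (0.30). Cysrt1 lay closest to Klk5 (0.09), then to Dapl1 109382_r_at (0.35) and Lce1l (0.38). Dapl1 109381_s_at lay closest to Lce1l (0.28), then to Cysrt1 (0.41) and Klk5 (0.47). Over 4 arrays this distance holds both the size of the fall and the spread between the arrays of a genotype, and it says nothing of shared function. Since the members were chosen for large falls, other genes with large falls were bound to lie nearest. Dapl1 109381_s_at and Lce1l had nearly equal falls, for example, but their null readings differed in spread.

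The tissue and genotype were checked beside these values. Trp63 read 61.9 and 46.6 in null skin and 379.3 and 347.1 in wild-type skin, a log2 difference of -2.49 (SE 0.18, limma adjusted p = 1.13e-05). The position of its probes with respect to the mutated part of the gene is unknown here. Of 13 keratinocyte markers 11 were tested and all 11 fell, with a median of -3.14 and a range from -5.42 for Lor to -1.11 for Itgb4. The A-chip signal summed over the keratinocyte markers was 4340 and 5047 in null skin and 40414 and 39844 in wild-type skin. Differentiation genes make up much of it: Krt1, Krt10, Lor and Flg read 7500, 7121, 6717 and 6065 in wild-type array 1. The sum is therefore no measure of keratinocyte content, and Lor and Flg also stand in lists read below. The probe sets of the defining basal keratins Krt5 and Krt14 read at most 15.9 on every A-chip array, wild type included, and were not tested. They are not taken as levels of these genes. Markers of other tissues were higher in null skin. All 11 skeletal muscle, 6 of 7 adipocyte, 9 of 10 leukocyte, 5 of 7 endothelial and 5 of 8 fibroblast markers rose, and 0 fell. Over all tested A-chip probe sets 22.1% were called higher and 22.2% lower, and on the B chip, which read Krt15, 14.5% and 14.9%. In whole skin, fewer keratinocytes and less of a transcript per keratinocyte cannot be told apart, and the part of either in the members' falls was not tested. For the rises given below, a larger share of other tissues and more of a transcript per cell cannot be told apart. The part of either in those rises was not tested. Beta-actin's 3' over 5' signal ratio, which reads RNA integrity, was 1.27 to 1.36 in null arrays and 1.505 to 1.98 in wild-type arrays, and its part was not tested. The Gapdh ratio was 1.25 to 1.51 in null arrays, 1.47 and 1.55 in wild-type array 1 of the chips and 2.46 and 2.66 in wild-type array 2, which thus stood apart. Its part in the results was not tested. Several calls given below are lost without wild-type replicate 2, as others are without another array. Null array 2 of each chip stood apart in its spike-in signals (CreX 6420 and 32512, against at most 3837 and 18942 on the other arrays). Without null array 2 the 7 tested member differences lay between -6.74 and -4.0.

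Lists of genes of the same pathway, family or structure were read beside the members. Over all genes tested, limma called 22.2% of A-chip probe sets lower and 22.1% higher in null skin (44.3% in either direction), and 14.9% and 14.5% of B-chip probe sets (29.4%) (Benjamini-Hochberg adjusted p under 0.05). On the B chip 1106 probe sets were called lower and 1083 higher, and fewer in each direction without wild-type replicate 1 or 2. On the A chip 1653 were called lower and 1646 higher, and fewer in each direction without wild-type replicate 1 or 2 or null replicate 2. A fit without 1 array keeps a single array of that genotype and has less power to call a change. A call lost in such a fit, here or below, therefore need not mean a changed difference. All tested probe sets had a median difference of 0.02 (A chip) and 0.04 (B chip). A gene was read once, on the A chip where it was tested there. Of the list genes tested on both chips, Asprv1 and Rnf149 were called lower on both. Rnf11 was called lower on the A chip only, and Rnf44 and Atg7 higher on the B chip only. Gclm, Becn1, Atg4b, Rnf220, Rnf34 and Rnf6 were called on neither.

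Most tested partners of Ggct in the gamma-glutamyl cycle rose or passed in neither direction, as did most tested probe sets of each chip. The counts of this list are therefore to be read against the shares of lower and higher calls given above. Of 17 genes 10 were tested, of which 1 fell, 4 rose and 5 passed in neither direction, with a median of 0.20. Anpep, an aminopeptidase that finishes glutathione breakdown at the cell surface, read 723 and 828.1 in null skin and 316.1 and 254.6 in wild-type skin. Its log2 difference was 1.41, and those of the amino acid carrier Slc1a5, the dipeptidase Dpep1 and the 5-oxoprolinase Oplah were 1.41, 0.95 and 0.89, with limma adjusted p-values of at most 0.0134. Ggt6, of the gamma-glutamyltransferase family, was the 1 gene that fell (-0.97, limma adjusted p = 0.0197). Oplah was no longer called when wild-type replicate 1 was left out (adjusted p = 0.0732), nor Ggt6 when wild-type replicate 2 was (0.162) or with no filter (0.0516). Without null replicate 1, Chac1 was also called lower, which made 2. Chac1, another gamma-glutamylcyclotransferase that acts on glutathione itself, had a difference of -0.55 (limma adjusted p = 0.0703) and glutathione reductase Gsr one of 0.01.

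Among Hal's partners in histidine metabolism, the tested genes mostly showed small differences, but the breakdown enzymes after Hal were not among them. Of 15 genes 10 were tested, with 1 lower, 3 higher, 6 in neither direction and a median of -0.17. The shares over all tested probe sets, given above, stand beside these counts as well. Hars, the cytosolic histidyl-tRNA synthetase, was the 1 gene that fell, at 170.2 and 200.4 in null skin and 371.9 and 388.3 in wild-type skin (log2 difference -0.99). The folate enzyme Aldh1l1 rose by 1.20, the histidine decarboxylase Hdc, abundant in mast cells, by 0.79, and the carnosine dipeptidase Cndp2 by 0.53. The call for Cndp2 (limma adjusted p = 0.0192) was lost without null replicate 1, and on leaving out the first or the second wild-type array. Its differences there were 0.48, 0.48 and 0.57. Without null replicate 2 a further gene fell, Mthfd1. The carnosine methyltransferase Carnmt1 (-0.23) and the amino acid carrier Slc7a5 (-0.12) passed in neither direction. Uroc1, which degrades the urocanic acid that Hal makes, stayed below the level for testing, with 159.2 and 90.9 in null skin and 160.4 and 113 in wild-type skin. Ftcd, of the same breakdown route, also stayed below it, with 59.2 and 88 in null skin and 98.7 and 63.5 in wild-type skin. Amdhd1 had no probe set with a single symbol, so the route after Hal was left unread.

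The filaggrin processing list was read because histidine is released from filaggrin. It holds Flg and Arg1 beside genes that process filaggrin, so its counts do not describe processing genes alone. Flg2 and Hrnr also stand in it but had no probe set with a single symbol. Of its 13 genes 8 were tested, and 6 fell, 1 rose and 1 passed in neither direction, with a median of -2.66. Padi1, Padi3 and Padi4, of the peptidylarginine deiminases, stayed below the level for testing. Flg, the filaggrin gene, read 250.7 and 282.1 in null skin and 6065 and 5806.2 in wild-type skin. Its log2 difference was -4.41, and those of the cornification protease Casp14, the retroviral-like protease Asprv1 and the membrane protease St14 were -3.63, -3.59 and -3.50. Asprv1 had a B-chip difference of -3.33 as well. Arg1, the arginase, rose by 0.58 (limma adjusted p = 0.0281), a call lost without null replicate 2 (0.0739) or wild-type replicate 1 (0.176) and without the filter (0.0636). Without null replicate 1, 2 genes rose. The calpain gene Capn1 had a difference of 0.35 (limma adjusted p = 0.0983). The summed A-chip signal of the keratinocyte markers, given above, includes Flg and was lower in both null arrays.

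All 9 tested genes of the late envelope, the setting in which Cysrt1 has been placed, fell, with a median of -4.78. Lce1l read 43.1 and 45.8 in null skin and 7574.4 and 8199.3 in wild-type skin (log2 difference -6.33), and Lce1m, loricrin (Lor) and Crct1 had differences of -5.93, -5.42 and -5.20. The smallest fall in the list was that of Lce1a1, at -3.94, named after its value was seen. Several of these probe sets carry the suffix _f_at, for probes that recognise a gene family, so single Lce genes cannot be told apart. Lce1b read 92.3 and 24.6 in null skin and 22.2 and 27.5 in wild-type skin and was not tested.

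**Figure D3:**
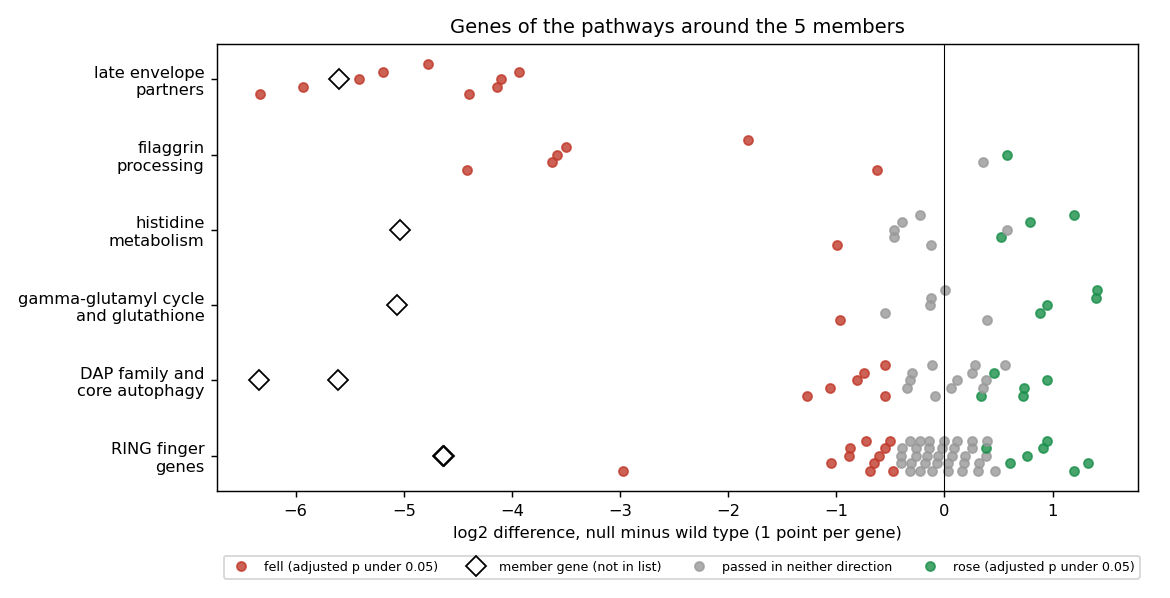
Log2 difference, null minus wild type (x axis), of each tested gene of 6 lists, coloured by call, with open diamonds for the tested probe sets of the member gene tied to a list (none is tied to filaggrin processing). The tested genes of the 2 metabolic lists lie between -0.99 and 1.41 and those of the late envelope between -6.33 and -3.94, while the diamonds lie far left because the members were chosen for large falls.

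Genes of the DAP family and of autophagy, the process that Dap restrains, went both ways. Of 24 genes 23 were tested, and 6 fell, 5 rose and 12 passed in neither direction, with a median of 0.06. Dap, the gene after which Dapl1 is named, read 1395.5 and 1687.4 in null skin and 1038.5 and 1187.4 in wild-type skin, a log2 difference of 0.46 (limma adjusted p = 0.02003). That call was lost without null replicate 2 (0.0580) or wild-type replicate 1 (0.144), without the filter (0.0501) and without the variance trend (0.0570). The kinase Dapk1 rose by 0.95, the membrane protein Atg9a by 0.74 and Wipi1 by 0.72. Atg9a was not called without wild-type replicate 1 (0.0622) or 2 (0.0740), nor Wipi1 without wild-type replicate 1 (0.0751).

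Among the falls of that list, Wipi2, which binds phosphoinositides on the forming autophagosome, had a log2 difference of -1.27. The conjugation factors Atg5 and Atg3 had differences of -1.06 and -0.81 and the ATG8 family member Gabarapl2 one of -0.74. Atg3 was not called with wild-type replicate 2 left out (adjusted p = 0.0739). Over the list, 3 genes fell without wild-type replicate 2, 3 rose without it and 2 rose without wild-type replicate 1. The ATG8 family member Gabarap (-0.09) and Rptor (0.12), of the mTORC1 kinase complex, passed in neither direction.

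Of 57 RING finger genes other than Rnf227, 52 were tested, and 11 fell, 7 rose and 34 passed in neither direction, with a median of -0.09. The largest fall was that of Rnf225, with 31.3 and 42.0 in null skin and 422.7 and 332.2 in wild-type skin (log2 difference -2.98). The next falls, of Rnf208, Rnf43 and Rnf13, were -1.05, -0.89 and -0.87. The largest rises were those of Rnf125 (1.32), an E3 ligase of the antiviral response, Rnf128 (1.20), an E3 ligase known from T cells, Rnf122 (0.95) and Rnf135 (0.91), an E3 ligase of the RIG-I pathway. These genes are tied to Rnf227 by name only, and the list's shares of falls and rises, like those of the autophagy list, were not far from the shares over all probe sets. The list's counts were unsteady. With wild-type replicate 2 left out, 6 fell and 2 rose. With wild-type replicate 1 left out 2 rose, and without null replicate 2, 3 rose.

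The calls for Rnf43, Rnf128, Rnf122 and Rnf135 were each lost on leaving out at least 1 array. Without null replicate 1 the Rnf43 difference was -0.79, and -1.14 and -0.63 on leaving out the first and the second wild-type array. That of Rnf128 was 0.96 without null replicate 2 and 0.83 without wild-type replicate 1. That of Rnf122 was 0.86 without wild-type replicate 2. Rnf135 had 0.76 without null replicate 2, 0.80 with the first wild-type array left out and 1.03 with the second left out. Rnf146 (-0.26) and Rnf139 (-0.40, limma adjusted p = 0.0504) passed in neither direction.

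Genes beside the members in the genome were read to see whether the falls extended to them. Dapl1 and Cysrt1 lie on chromosome 2, Ggct on 6, Hal on 10 and Rnf227 on 11 of GRCm38.p6. Of the 20 nearest protein-coding genes, 2 on each side of each member, 14 had a probe set and 9 were tested. Read once each, by the rule of the lists, 3 fell and 1 rose by limma, beside 22.2% lower and 22.1% higher of all A-chip probe sets and 14.9% and 14.5% on the B chip. A further gene, Znrf2, passed in a dimmer probe set only. Tanc1, a scaffold protein gene beside Dapl1, read 18.7 and 20.9 in null skin and 195.4 and 160.2 in wild-type skin, a log2 difference of -2.54 (SE 0.22, adjusted p = 2.77e-05). A second Tanc1 probe set read between 23.7 and 38.4 in all 4 arrays and was not tested.

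Pkp4, a plakophilin-related junction protein gene on the other side of Dapl1, had an A-chip difference of -0.80 (adjusted p = 0.000945) and a B-chip difference of -0.04 (0.850), so its probe sets disagreed. Rnf208, beside Cysrt1, is the gene already named among the RING finger falls, at 297.6 and 272.4 in null skin and 619.4 and 587.2 in wild-type skin. Slc34a3, a phosphate carrier gene near Cysrt1 on its other side, rose by 0.70 (adjusted p = 0.0192), and had an adjusted p of 0.117 without wild-type replicate 1. Znrf2, near Ggct with Nod1 between them, passed in 1 of 4 tested probe sets (-0.64, adjusted p = 0.0327). That call was lost without null replicate 2 (0.155), without wild-type replicate 2 (0.155) and without the filter (0.0840).

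The tested neighbours of Hal and Rnf227, and both others of Ggct, passed in neither direction. Lta4h, the leukotriene A4 hydrolase gene beside Hal, read 1536.8 and 1573.3 in null skin and 1580.6 and 1486.3 in wild-type skin (log2 difference 0.02). Trappc1, near Rnf227, had a difference of -0.27, and Nod1 and Gars, near Ggct, had differences of 0.14 and -0.23. Amdhd1, which acts after Uroc1 in histidine breakdown and lies next to Hal, had no probe set with a single symbol.

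**Figure D4:**
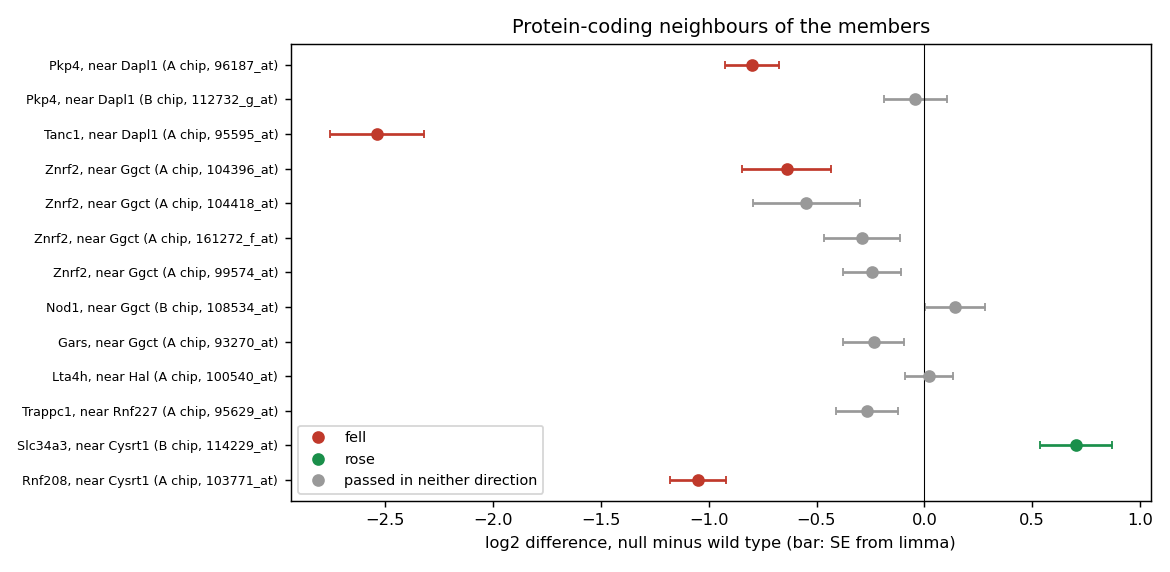
Log2 difference, null minus wild type (x axis), with its SE from limma, for each tested probe set of the protein-coding neighbours, coloured by call. Tanc1 stands at -2.54, and the other probe sets lie between -1.05 and 0.70.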

How the data were processed

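Skins of 2 null and 2 wild-type embryos gave 8 arrays on 2 chips. RNA was taken up in TriZol, purified with RNeasy and labelled with biotin, per the labels' protocols. The deposited values are intensity signals, and the submitters' processing notes name MAS5, with no version. The authors' scaling shows in equal 2% trimmed means (250.1 to 250.2 and 500.1). The number of arrays limits precision.

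Each array was rescaled to one trimmed mean, the chip's 20th percentile was added and log2 taken, so low signals understate differences. The 66 control probe sets of each chip and probe sets at or below the 40th percentile of mean log2 were left out. Linear models were fitted per chip with limma 3.58.1 in R 4.3.3 (trended eBayes, two-sided, Benjamini-Hochberg over 7453 and 7446 probe sets). A run on simulated data had far fewer changed probe sets than were called here, so it does not vouch for these calls. Probe sets with 1 symbol numbered 10833 and 10581, with several 396 and 178, and with none 1193 and 1652, from GEO's platform annotation. Only the 250 bases before each start were searched for motifs.

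Members and lists were chosen with earlier results of these data known. In a list, the text names up to 4 called genes of largest change in each direction and the 2 uncalled genes of highest mean signal, beside the 3 nearest patterns, the next genes in the order of falls and the 2 nearest coding genes on each side. Alternatives were the offset, scaling, filter, variance trend, replicate block, leaving out single arrays and, for the lists, reading a gene on the B chip first.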

Additional observations from a re-analysis of the deposited data

How the results depend on the processing

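The differences of the 7 tested member probe sets stayed negative under every alternative run, while the low Rnf227 set 165013_i_at, which was not tested, read -0.09 and changed sign without null replicate 2 (0.03) and without wild-type replicate 1 (0.02). The size of the member differences followed the offset, since the null readings are low. With an offset of 1 the differences were -7.69 for Dapl1 109381_s_at, -7.43 for Dapl1 109382_r_at, -6.04 for Cysrt1, -5.46 for Hal, -5.28 for Ggct, and -5.01 and -5.80 for Rnf227 on the A and B chips. With 0.5 times the offset they were -6.85 and -6.23 for the Dapl1 sets, -5.80 for Cysrt1, -5.25 for Hal and -5.18 for Ggct, and with double the offset -5.69 and -4.87 for the Dapl1 sets, -5.26 for Cysrt1, -4.69 for Hal, -4.86 for Ggct and -4.32 for Rnf227 on the A chip. Leaving out single arrays gave -6.74 to -5.93 for Dapl1 109381_s_at, -5.90 to -5.32 for Dapl1 109382_r_at, -5.77 to -5.42 for Cysrt1, -5.14 to -4.94 for Hal, -5.17 to -4.95 for Ggct, -4.93 to -4.34 for Rnf227 on the A chip and -5.25 to -4.0 on the B chip.

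Leaving out single arrays gave 1119 to 1729 lower and 1078 to 1574 higher calls on the A chip, and 557 to 1291 lower and 546 to 1186 higher on the B chip. In the lists it gave 3 to 7 falls and 2 to 5 rises for autophagy, 6 to 12 and 2 to 9 for RING finger genes, 5 to 6 and 0 to 2 for filaggrin processing, 0 to 2 and 3 to 5 for the gamma-glutamyl cycle, 1 to 2 and 2 to 3 for histidine metabolism, and 9 and 0 for the late envelope. Without the filter, 3 autophagy and 3 RING finger genes rose, 0 filaggrin processing genes rose and 0 gamma-glutamyl cycle genes fell. With the filter at the 60th percentile 4 RING finger genes rose and 0 gamma-glutamyl cycle genes fell. That filter removed Trp63 and Tanc1 from testing.

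With the replicate block 2 gamma-glutamyl cycle genes fell. The numbers share no stated origin, and deviations of same-numbered embryos from their group means correlated over probe sets at 0.04 (A chip) and -0.05 (B chip), so no pairing was used. Of the comparisons of counts and leading differences with their alternatives, 281 stayed within 1.5 times or 1 SD and 39 did not, and for these the cause was not tested unless the setting itself removes arrays or probe sets. Signals near the offset limit how far the null level of Dapl1 and Rnf227 can be measured.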
